A study of Mus musculus with 6 samples.

Results

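Double-strand break and interstrand crosslink repair was followed as 38 genes, all of them found by symbol among the 33006 genes of the count tables. They were chosen by their known roles: 12 genes of homologous recombination, 9 of break sensing and checkpoint signalling, 7 of end joining and 10 of the Fanconi anaemia pathway with its partner helicases. The cells were primary pulmonary endothelial cells of C57BL/6 mice in culture, given water (control) or 300 uM hydrogen peroxide (H2O2) for 6 hours once they were 80% confluent, and mRNA was sequenced from 3 libraries per group. Age, sex and the number of animals are not stated in the labels, nor are separate cultures or animals behind the numbered libraries, so the p-values cover the spread between libraries, which may be technical.

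A double-strand break is sensed by the Mre11-Rad50-Nbs1 complex and by the Ku heterodimer, and is signalled by the kinases ATM, ATR and DNA-PKcs. End joining ligates the broken ends directly through Ku, DNA-PKcs, Artemis, XLF, XRCC4 and DNA ligase IV at any stage of the cell cycle. Homologous recombination copies the sister chromatid in S and G2 phase, with BRCA1, BRCA2 and PALB2 among its central proteins, and the Fanconi proteins unhook crosslinks at stalled replication forks. H2O2 mainly makes oxidised bases and single-strand breaks, which can become double-strand breaks at replication forks.

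With H2O2, transcripts of this machinery changed little, and in both directions. Of the 38 members, all of which passed the filter on low counts, 6 rose and 3 fell at an adjusted p under 0.05 in edgeR's quasi-likelihood test, which is 23.7% of them, against 20.5% of the 12924 genes tested (9.70% rose and 10.8% fell). The risers were Brca1, Brca2, Xrcc3, Mdc1, Atm and Prkdc, and the fallers were Xrcc6, Lig4 and Fanca. The share called was near that of all genes, and the median log2 fold change of the members was 0.0155 against -0.00412 for all tested genes. By DESeq2's test 3 rose and 2 fell, a share to be read against 15.8% of all genes. Without control replicate 3, 3 rose and 4 fell, beside 962 and 996 of all genes. Without H2O2 replicate 1, 2 rose and 2 fell, beside 900 and 926 of all genes. In the main test 1254 of all genes rose and 1395 fell.

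Sizes were small throughout. The median change among the 9 called members was 13.02%, close to the 13.2% of all called genes, and 1 called member, Xrcc3, reached 1.2-fold. All H2O2 libraries lay above all controls for 10 members and below them for 4, or 36.8% of members against 34.6% of all tested genes (16.5% above and 18.2% below). Together the members took 0.171% ± 0.000243 of all normalised counts in the control libraries and 0.173% ± 0.00148 in the H2O2 libraries (mean ± SD over n = 3). In bulk RNA, fewer cells that carry a transcript and less of it per cell cannot be told apart.

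**Figure D1:**
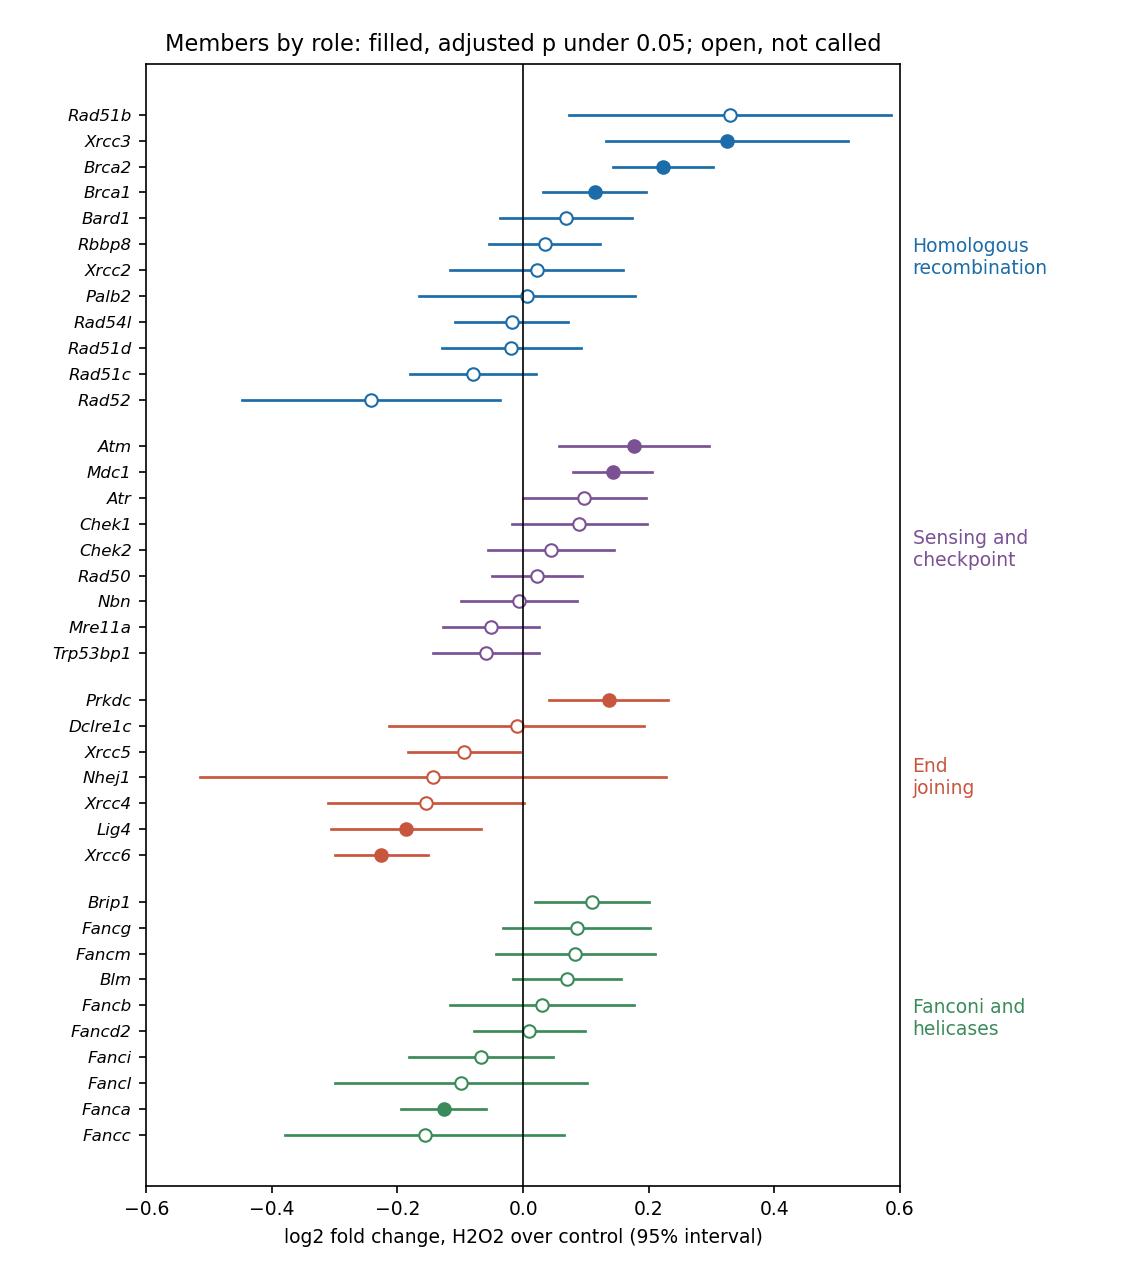
Log2 fold change of each of the 38 members (x axis, H2O2 over control) with its 95% interval from edgeR's quasi-likelihood fit, grouped by role; filled points passed an adjusted p of 0.05. Filled points lie on both sides of 0, and in end joining 6 of the 7 points lie below 0.

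The libraries held 22455388 to 27618679 gene counts, of which 38215 to 48088 fell on members. H2O2 replicate 3 stood apart from the other H2O2 libraries: its chi-square per degree of freedom over genes was 8.61 and 10.96 against them, while all other pairs within a group were at 1.62 to 2.86. Without it 4 members rose and 4 fell, beside 1177 and 1313 of all genes. Brca1 and Prkdc were no longer called, and Xrcc5 was. The summed level of 10 endothelial markers was 4335 to 4421 CPM in controls (counts scaled to library size with TMM factors). With H2O2 it was 4587 to 4615 CPM, so that the groups did not overlap. Cdh5, Pecam1 and Tie1 had the highest levels of these markers. Vwf had the lowest, with means of 16.3 CPM (control) and 16.6 CPM (H2O2). The 5 lymphatic endothelial markers summed to 2188 to 2243 CPM in controls and 2250.1 to 2294 CPM with H2O2, also without overlap. Most of this was Lyve1, and Flt4 averaged 347 CPM in controls and 373 CPM with H2O2. The others were low: Prox1 averaged 8.78 and 11.1 CPM, Mmrn1 3.63 and 5.28 CPM, and Pdpn was under 1 CPM. The 6 leukocyte markers summed to 157 to 164 CPM in controls and 162 to 169 CPM with H2O2, nearly all of it Cd68, and 5 of the 6, among them Ptprc, were under 1 CPM. The 6 fibroblast markers summed to 26.6 to 27.9 CPM and 24.1 to 27.7 CPM, mostly Dcn, with Col1a2 and Tcf21 at 0. The 6 epithelial markers were each under 1 CPM on average, with Krt8, Scgb1a1 and Sftpc at 0, as were the 3 mesothelial markers, with Upk3b and Wt1 at 0. The 6 smooth muscle and pericyte markers summed to 3.83 to 5.34 CPM and 3.80 to 4.60 CPM. The part of these markers in the members' values was not tested.

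Levels per transcript length spanned a wide range. Normalised CPM per kilobase, averaged over all libraries, ran from 1.00 for Dclre1c, the Artemis nuclease, to 34.9 for Fanca, a core subunit of the Fanconi ubiquitin ligase. Next below Fanca were Mdc1 (27.2), Rad54l (26.0), Xrcc6 (25.3) and Xrcc5 (21.8). Opposite-strand exons of Zfp276 lie over 10.5% of Fanca's exonic sequence, and without a stated strand setting reads there cannot be told apart. Zfp276 itself had 41.6 ± 2.02 CPM without and 41.6 ± 0.635 CPM after H2O2 (mean ± SD over n = 3). The end-binding Ku subunits were thus expressed far above the catalytic subunit they recruit, Prkdc (3.59), and the large kinases Atm (4.11) and Atr (4.41) were also low per kilobase. The lowest members after Dclre1c were Nhej1 (1.96), Rad51b (2.07) and Fancc (2.11), for which the 3 values lie close together. Nhej1 had 48 to 59 reads per library, so its fold change is the least certain of the set.

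**Figure D2:**
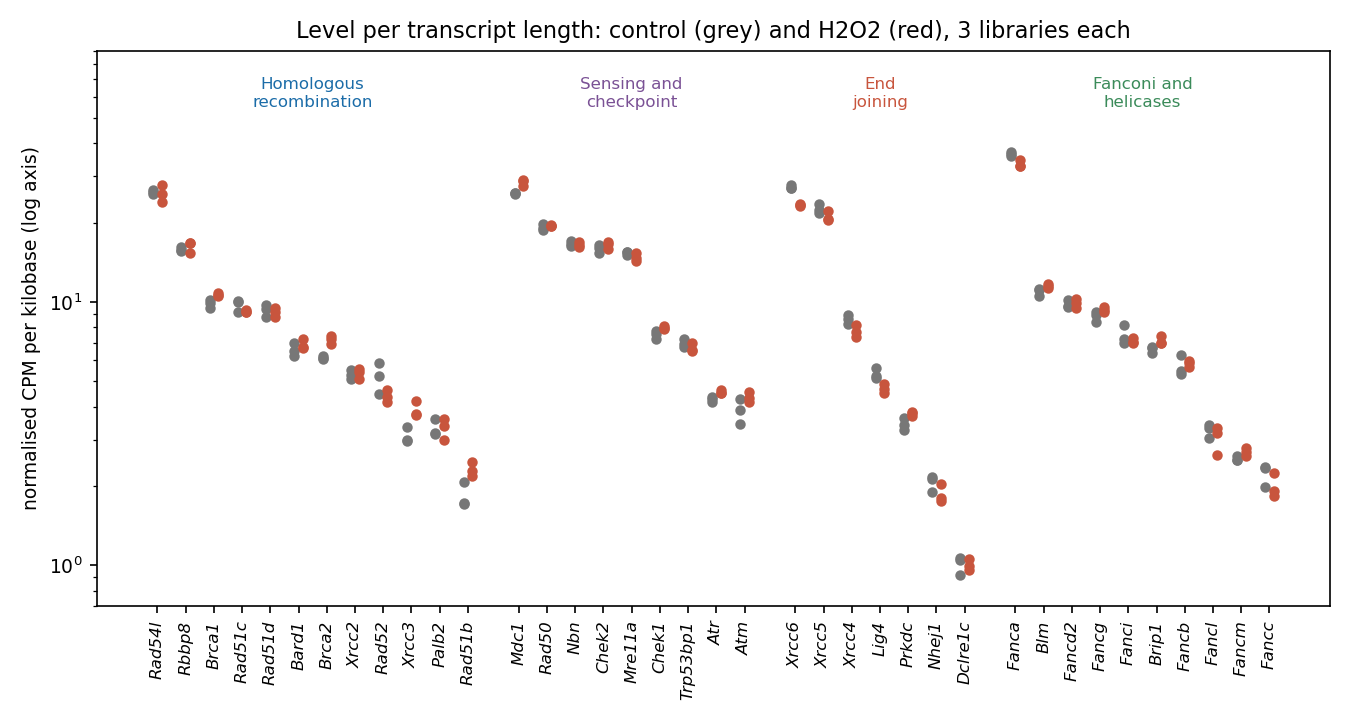
Normalised CPM per kilobase of transcript (log axis) for each member in the 3 control and 3 H2O2 libraries, ordered by level within each role. Levels run from 1.00 for Dclre1c to 34.9 for Fanca on average, and the control and H2O2 points of a gene lie close together compared with the distance between genes.

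Homologous recombination genes had 3 rises and 0 falls among 12 (25% called, against 20.5% of all genes), with a median log2 fold change of 0.03. Of 20 other genes listed for this pathway 2 rose and 1 fell, with a median of 0.01. Brca2 (chr5:150522630-150570329 in mm10), a central mediator of homologous recombination, measured 65.4, 65.9 and 66.6 CPM in the control libraries and 79.3, 77.2 and 74.4 CPM with H2O2. All H2O2 libraries lay above all controls, and the log2 fold change was 0.22 (SE 0.0386, 1.17-fold, edgeR adjusted p = 1.2e-04). It passed under all 15 alternatives, at 0.20 to 0.25. Brca1 (chr11:101488764-101551955), the ubiquitin ligase subunit that favours end resection, measured 67.0, 62.1 and 65.2 CPM in controls and 69.1, 71.0 and 70.0 CPM with H2O2. The groups were close but did not overlap, and the log2 fold change of 0.11 (SE 0.0398, 1.08-fold) passed narrowly (edgeR adjusted p = 0.042). Brca1 was not called by DESeq2's test (adjusted p = 0.078), without control replicate 2 or 3, or without any single H2O2 replicate, where edgeR gave log2 fold changes of 0.08 to 0.13 and adjusted p of 0.065 to 0.24.

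Xrcc2, Xrcc3, Rad51b, Rad51c and Rad51d, which encode related proteins that assist strand exchange, had estimates from -0.08 to 0.33. Xrcc3 (chr12:111803192-111813873) had 7.22, 8.13 and 7.17 CPM in controls and 10.2, 9.10 and 8.98 CPM with H2O2. Every H2O2 library was above every control, with a log2 fold change of 0.32 (SE 0.0935, 1.25-fold, edgeR adjusted p = 0.013). The call ended without control replicate 3 (0.30, adjusted p = 0.059) and without H2O2 replicate 1 (0.27, adjusted p = 0.089). Rad51b had the largest estimate of all members, 0.33 (SE 0.124, 1.26-fold), from 3.75, 4.52 and 3.76 CPM in controls to 4.78, 5.401 and 4.96 CPM with H2O2. Its groups did not overlap but it did not pass (edgeR adjusted p = 0.062). It did pass without control replicate 2 (0.43, adjusted p = 0.039), with a stricter filter of 1 CPM in every library (adjusted p = 0.049) and with an offset for each library's trend in length and GC content together with the replicate block (adjusted p = 0.047). The other members of this family did not pass: Rad51c at -0.08 with a 95% interval of -0.18 to 0.02, Rad51d at -0.02 (-0.13 to 0.09) and Xrcc2 at 0.02 (-0.12 to 0.16).

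Other members that act with BRCA1 and BRCA2 did not pass. Palb2, which joins BRCA1 to BRCA2, measured 13.5, 11.8 and 11.9 CPM in controls and 12.7, 13.5 and 11.2 CPM with H2O2, with overlapping groups and a log2 fold change of 0.01 (95% interval -0.17 to 0.18). Bard1, the ring-finger partner of BRCA1, was at 0.07 (-0.04 to 0.17), and Rbbp8, which encodes the resection factor CtIP, at 0.03 (-0.05 to 0.12). Opposite-strand exons of Lrrc41 lie over 15.4% of the exonic sequence of Rad54l, a motor protein of the strand exchange step. Rad54l is the most abundant of this class per kilobase. It had 79.3, 77.8 and 80.3 CPM in controls and 77.6, 84.1 and 72.7 CPM with H2O2, so the H2O2 values lay on both sides of the controls (log2 fold change -0.02, interval -0.11 to 0.07). Rad52, an annealing factor, had an estimate of -0.24 (SE 0.100) and did not pass (edgeR adjusted p = 0.091). Without control replicate 3 it did, at -0.33 (adjusted p = 0.030).

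Break sensing and checkpoint genes had 2 rises and 0 falls among 9 (22.2% called, against 20.5% of all genes), with a median of 0.04. Of 18 other genes listed with them 3 rose and 2 fell, with a median of -0.02. Mdc1 (chr17:35841515-35859670), the scaffold that binds phosphorylated histone H2AX beside breaks, had 189.8, 190.1 and 188.0 CPM in controls and 214, 211 and 203 CPM with H2O2. The controls lay within a narrow band and all H2O2 libraries were above it. The log2 fold change was 0.14 (SE 0.0305, 1.104-fold, edgeR adjusted p = 1.2e-03), and it passed under all 15 alternatives at 0.13 to 0.17. Atm (chr9:53439149-53536740), the kinase that responds to double-strand breaks, had 33.6, 38.2 and 41.8 CPM in controls and 42.5, 44.7 and 41.0 CPM with H2O2. The groups overlapped and the controls were widely spread, with a log2 fold change of 0.18 (SE 0.0584, edgeR adjusted p = 0.032). Without control replicate 1, which was the lowest, Atm stood at 0.10 (adjusted p = 0.22). It was also not called without control replicate 2 (adjusted p = 0.073), without H2O2 replicate 1 (0.066) or 2 (0.13), or by DESeq2's test (0.059).

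The sensor complex itself showed no called change. Mre11a, its nuclease, was at -0.05 (95% interval -0.13 to 0.03), the structural subunit Rad50 at 0.02 (-0.05 to 0.09) and Nbn, which tethers ATM, at -0.00696 (-0.0995 to 0.0856). Nbn had 41.2, 42.1 and 43.1 CPM in controls and 41.0, 43.0 and 41.8 CPM with H2O2, which is overlap throughout. These intervals leave out changes of 1.2-fold in either direction. Atr, the kinase of stalled forks, was at 0.10 (interval -0.000808 to 0.20), and its effector Chek1 at 0.09 (-0.02 to 0.20). Both had all H2O2 libraries above all controls but did not pass (edgeR adjusted p = 0.16 and 0.25). Chek2, the effector of ATM, was at 0.04 and Trp53bp1, which holds back resection, at -0.06, with overlapping groups in both. Exons of Tubgcp4 on the opposite strand lie over 15% of Trp53bp1's exonic sequence.

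Of the 7 end joining members 2 fell and 1 rose (42.9% called, against 20.5% of all genes), 6 of the 7 estimates were below 0 and the median was -0.14. Of the 14 other genes listed for end joining, 7 estimates were above 0 and 7 below, with a median of -0.00113, 1 rise and 2 falls. That list reaches beyond the Ku and DNA ligase IV route of the members, with Polq, Lig1, Lig3, Parp1 and Xrcc1 among its genes. Of all 12924 tested genes, 6630 had an estimate below 0. Xrcc6 (chr15:81987835-82040085) encodes Ku70, a subunit of the ring that binds broken ends. It had 89.0, 89.3 and 92.0 CPM in controls and 77.02, 77.6 and 76.4 CPM with H2O2. The groups were far apart compared with their spread, with a log2 fold change of -0.23 (SE 0.0361, 1.17-fold lower, edgeR adjusted p = 4.1e-05), the smallest p of all members. It passed under all 15 alternatives, at -0.23 to -0.19. Opposite-strand exons of Desi1 lie over 7.69% of Xrcc6's exonic sequence, and Desi1 was at -0.05 (edgeR adjusted p = 0.38). Its partner Xrcc5 (Ku80) had 55.7, 57.1 and 60.04 CPM in controls and 52.5, 52.8 and 56.5 CPM with H2O2, with overlap. Its estimate was -0.09 (95% interval -0.18 to -0.00439), which did not pass (edgeR adjusted p = 0.14) except without H2O2 replicate 3 (-0.13, adjusted p = 0.047). That Xrcc6 changed more than Xrcc5 was not tested. The ratio of Xrcc6 to Xrcc5 per kilobase, set out after the values were seen, was 1.24, 1.21 and 1.19 in controls and 1.138, 1.139 and 1.05 with H2O2.

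Lig4 (chr8:9969049-9977686), the ligase that seals the ends, had 28.3, 25.9 and 26.2 CPM in controls and 22.7, 23.5 and 24.4 CPM with H2O2. All H2O2 libraries lay below all controls (log2 fold change -0.19, SE 0.0582, 1.138-fold lower, edgeR adjusted p = 0.023). The call ended without control replicate 1 (-0.14, adjusted p = 0.13), without H2O2 replicate 1 (adjusted p = 0.11) or 2 (0.063) and by DESeq2's test (0.070). Xrcc4, the partner that stabilises the ligase, had an estimate of -0.15 with groups that did not overlap and did not pass (edgeR adjusted p = 0.16). Nhej1 (XLF), which bridges the ends, was at -0.14 with a wide interval of -0.51 to 0.23, and did not pass. Dclre1c had 7.42, 6.48 and 7.53 CPM in controls and 7.01, 6.78 and 7.45 CPM with H2O2, with full overlap and an estimate of -0.01 (-0.21 to 0.19).

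Prkdc (chr16:15637866-15842235), the catalytic subunit of the DNA-dependent protein kinase, was the one end joining member that rose. It had 45.7, 41.1 and 42.9 CPM in controls and 48.0, 46.6 and 48.1 CPM with H2O2, without overlap (log2 fold change 0.14, SE 0.0462, 1.099-fold, edgeR adjusted p = 0.037). The call was lost by DESeq2's test (adjusted p = 0.079), with the length and GC offset (0.12, adjusted p = 0.086; 0.057 with the replicate block), without control replicate 2 (0.0997, adjusted p = 0.22) or 3 (0.11), and without H2O2 replicate 1 (0.11) or 3 (0.079). The ratio of Prkdc to Xrcc6 per kilobase, a pair chosen after their values were seen, was 0.134, 0.120 and 0.122 in controls and 0.162, 0.157 and 0.164 with H2O2. Prkdc rose and Xrcc6 fell, each with groups apart, so this ratio had to differ and adds nothing to the calls. Of the other ratios taken per kilobase, Brca2 over Palb2 also had groups apart, while Brca1 over Bard1 overlapped.

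**Figure D3:**
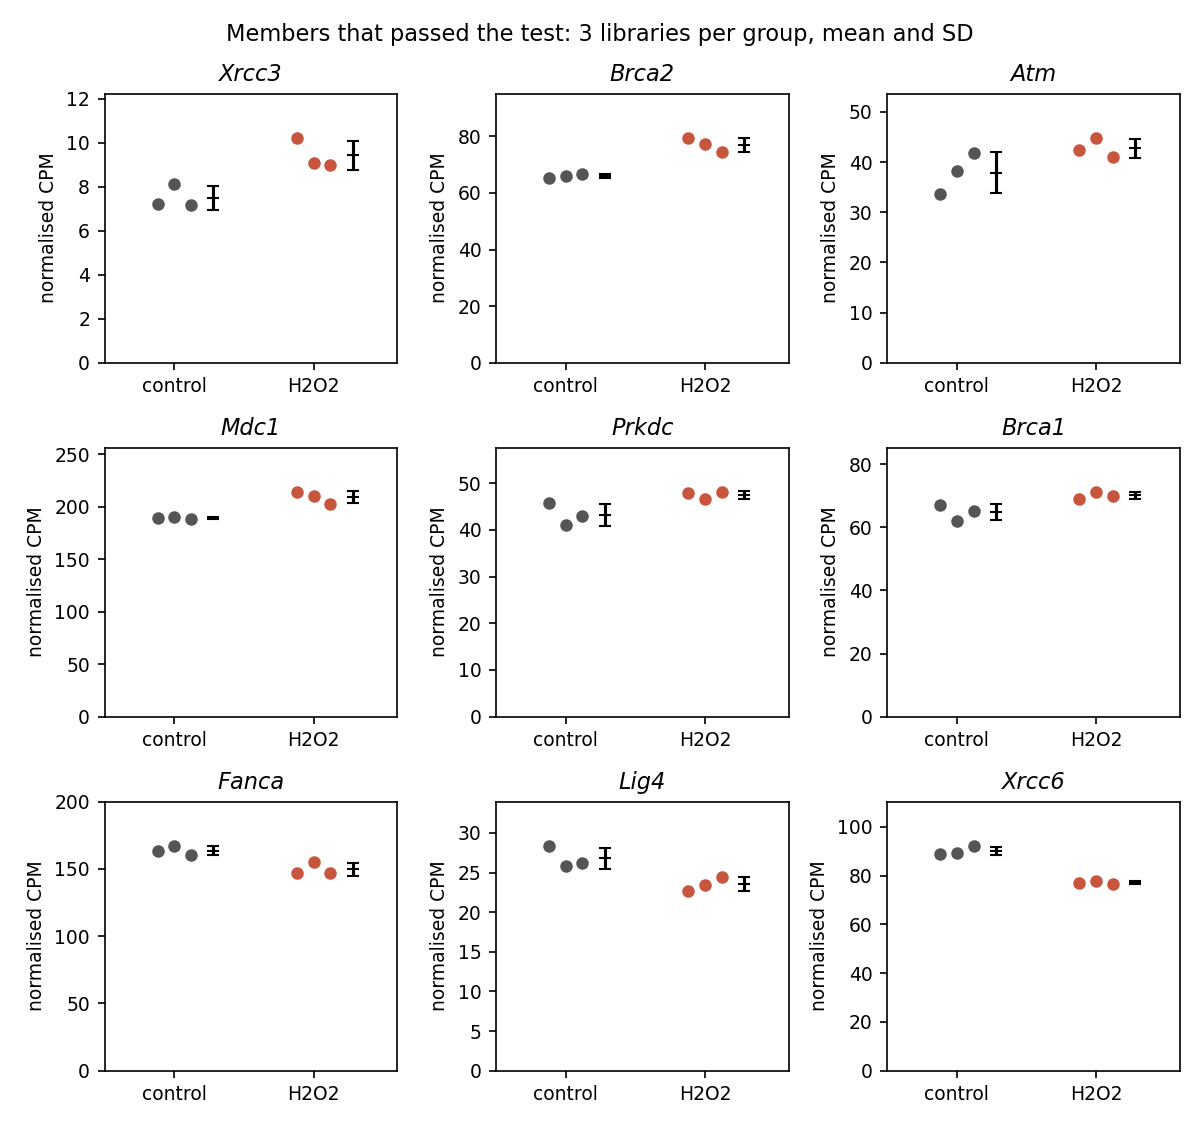
Normalised CPM (y axis, from 0) of the 9 members that passed the test in each of 3 control and 3 H2O2 libraries, with the mean and SD beside the points. Groups are apart in all panels except Atm, where control replicate 3 at 41.8 CPM lies above H2O2 replicate 3 at 41.0 CPM.

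Fanconi anaemia genes had 0 rises and 1 fall among 10 (10% called, against 20.5% of all genes), with a median of 0.02. Of 17 other genes listed for the pathway 1 rose and 1 fell, with a median of 0.00353. Fanca (chr8:123268300-123318576) had 163, 167 and 160.1 CPM in controls and 147, 155 and 147 CPM with H2O2. Every H2O2 library was below every control (log2 fold change -0.13, SE 0.0330, 1.09-fold lower, edgeR adjusted p = 6.7e-03). Without control replicate 2 the adjusted p was 0.053 (-0.11), and with the length and GC offset it was 0.051 (-0.08). The ubiquitinated pair at the centre of the pathway did not pass: Fancd2 had 52.8, 56.1 and 53.2 CPM in controls and 54.5, 56.3 and 52.4 CPM with H2O2 (0.00970, 95% interval -0.08 to 0.10), and Fanci was at -0.07 (-0.18 to 0.05). Of the other core complex subunits, Fancb (0.03), Fancg (0.09) and Fancl (-0.10), which encodes the ligase subunit, had overlapping groups. Fancc had 7.42, 6.25 and 7.48 CPM in controls and 6.05, 7.07 and 5.80 CPM with H2O2, overlapping, with the largest estimate of the class (-0.16, interval -0.38 to 0.07). Opposite-strand exons lie over 18.6% of its exonic sequence, over 16% of Fanci's and over 13.7% of Fancl's. The fork translocase Fancm was at 0.08. The helicases Blm, which dissolves joint molecules, and Brip1, the partner of BRCA1, were at 0.07 and 0.11. Both had all H2O2 libraries above all controls without passing (edgeR adjusted p = 0.27 and 0.082).

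Seen library by library, the classes did not all lie on 1 side. Every library was set against the control mean, which holds control values near 0 and is shared by all H2O2 values. The class median of log2 CPM over the control mean was -0.13 in each of the 3 H2O2 libraries for end joining, against -0.02, -0.01 and 0.03 in controls. For homologous recombination it was 0.03, 0.11 and 0.05 with H2O2 and between -0.00305 and 0.000532 in controls. For sensing and checkpoint genes it was 0.08, 0.03 and 0.06 with H2O2, and 0.00341 to 0.00622 in controls. Fanconi genes overlapped between groups, and the medians of all tested genes were -0.00715 to 0.00267 in all libraries. These are descriptions of the 7 to 12 members in each class, not of whole pathways, since the 14 other end joining genes had a median log2 fold change of -0.00113, and a difference between classes was not tested.

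**Figure D4:**
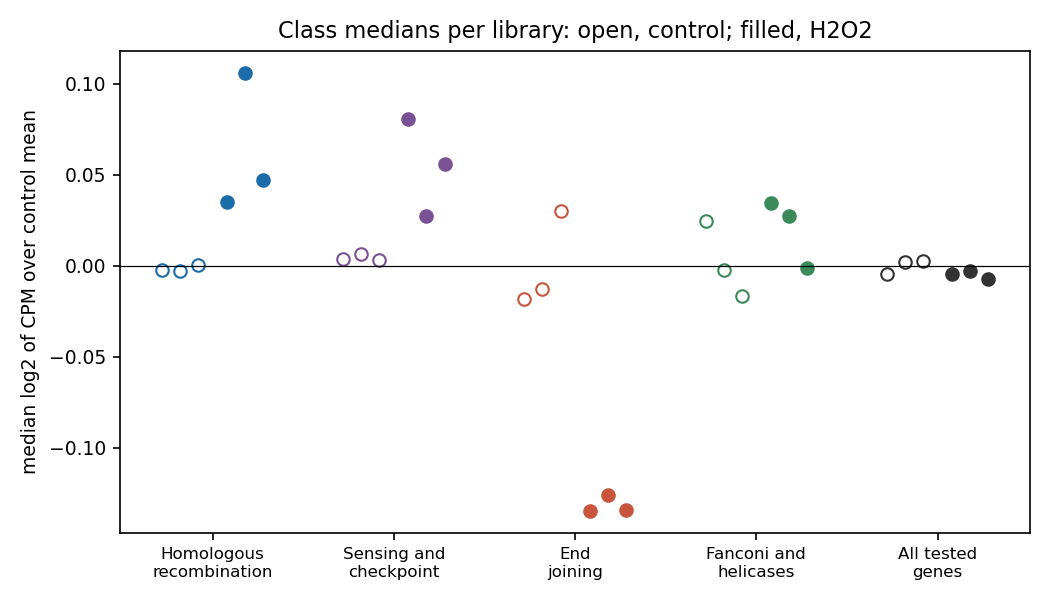
Median over each class of the log2 ratio of a library's normalised CPM to the control mean (y axis), with open points for controls and filled points for H2O2, 3 libraries each. The end joining median is -0.13 in all 3 H2O2 libraries, while the other classes and all tested genes lie between -0.02 and 0.11. Control points lie near 0 by construction, since the control mean is the reference.

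Estimates were higher for members with long transcripts, a split made after the values were seen. The members' median transcript length was 3.87 kb, and of the 19 above it 5 rose and 2 fell, with a median log2 fold change of 0.07. Of the 19 at or below it, 1 rose and 1 fell, with a median of -0.00696. Over all tested genes these medians were -0.01 and 0.00264. The shares of all genes called on either side of this length were not counted, so these counts of members have no background share. Spearman's rho between length and log2 fold change was 0.40 over the 38 members and 0.29 without the 5 longest. It was 0.14 over the 69 other repair genes and -0.14 over 12807 tested genes with a length. The relation over all genes did not run 1 way. In 10 bins of length, the all-gene median was 0.10 in the shortest bin (median length 879 bases). From -0.03 in the bin at 2839 bases it went up to -0.00318 in the bin at 8083 bases, the direction seen in the members. The points share the same 6 libraries and are genes, not replicates. With the length and GC offset, 5 members rose and 2 fell, beside 1191 and 1386 of all genes. Brca2, Mdc1, Atm, Brca1, Xrcc3, Xrcc6 and Lig4 were still called.

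**Figure D5:**
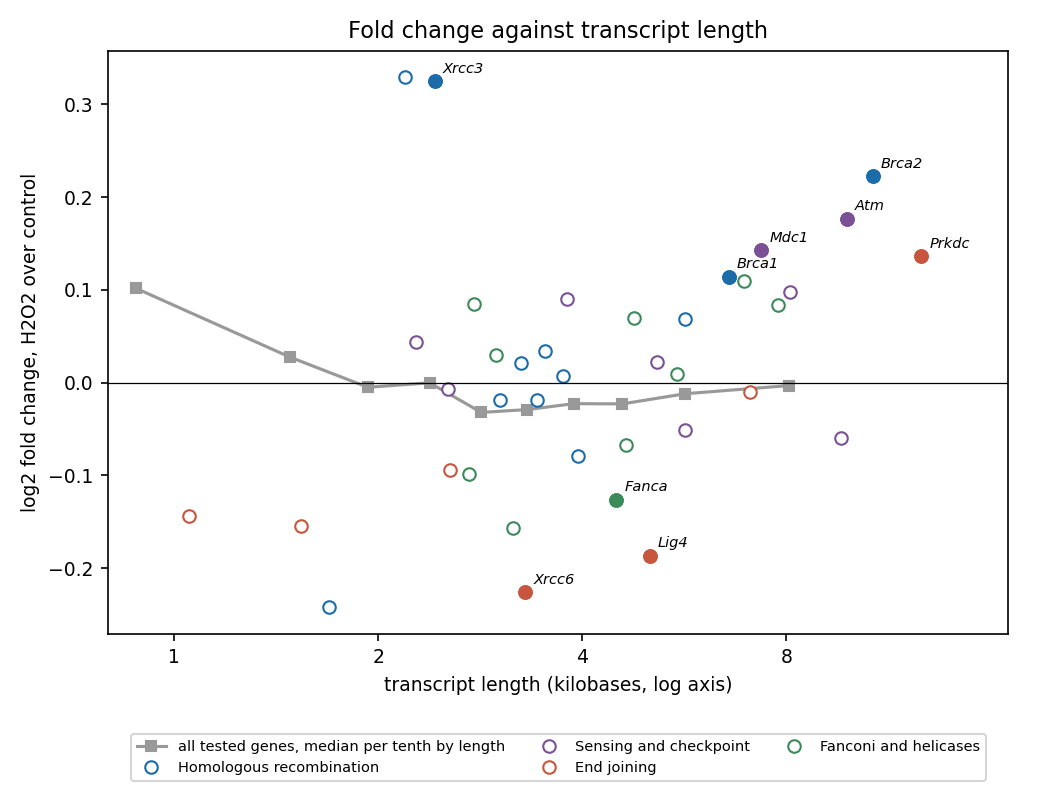
Log2 fold change of each member (y axis) against transcript length in kilobases (log axis), coloured by role, with members that passed the test filled and named; grey squares are medians of all tested genes in bins of length. Of the 6 members that rose, 5 lie above the members' median length of 3.87 kb, where the medians of all genes are close to 0. The share of all genes called above this length was not counted.

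The promoters of the 2 risers and 2 fallers with the smallest p among members with a RefSeq promoter window are printed here, since they are where a shared sequence of genes that moved in opposite directions could be looked for. Windows run from 250 bases before to 50 after the start (RefSeq, GRCm38.p6), 5′ to 3′ on the gene's strand. Capitals mark matches on either strand to E2F-type words (TTTCCCGC, TTTCGCGC, TTTGCCGC and TTTGGCGC), the CHR-type word TTTGAA and the CCAAT box, none of which overlap in these windows. The RefSeq start of Xrcc6 lies inside the GENCODE span of the gene given above.
Brca2 (chr5:150522371-150522670, plus strand): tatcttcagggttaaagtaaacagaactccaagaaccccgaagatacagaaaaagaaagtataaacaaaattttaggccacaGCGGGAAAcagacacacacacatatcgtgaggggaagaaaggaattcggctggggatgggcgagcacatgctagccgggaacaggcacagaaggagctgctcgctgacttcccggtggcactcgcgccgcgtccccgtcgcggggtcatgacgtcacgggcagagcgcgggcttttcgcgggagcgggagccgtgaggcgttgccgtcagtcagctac
Mdc1 (chr17:35841248-35841547, plus strand): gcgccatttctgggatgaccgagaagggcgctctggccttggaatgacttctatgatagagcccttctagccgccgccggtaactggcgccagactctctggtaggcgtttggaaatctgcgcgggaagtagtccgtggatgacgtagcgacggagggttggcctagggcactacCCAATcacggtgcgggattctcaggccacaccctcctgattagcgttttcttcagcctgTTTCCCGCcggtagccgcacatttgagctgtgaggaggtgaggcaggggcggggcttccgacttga
Xrcc6 (chr15:82016119-82016418, plus strand): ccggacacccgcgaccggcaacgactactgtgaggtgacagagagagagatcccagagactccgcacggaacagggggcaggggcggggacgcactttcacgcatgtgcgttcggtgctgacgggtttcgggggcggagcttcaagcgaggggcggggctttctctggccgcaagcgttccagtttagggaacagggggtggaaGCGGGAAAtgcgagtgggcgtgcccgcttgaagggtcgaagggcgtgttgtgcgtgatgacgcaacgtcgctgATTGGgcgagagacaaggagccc
Fanca (chr8:123318527-123318826, minus strand): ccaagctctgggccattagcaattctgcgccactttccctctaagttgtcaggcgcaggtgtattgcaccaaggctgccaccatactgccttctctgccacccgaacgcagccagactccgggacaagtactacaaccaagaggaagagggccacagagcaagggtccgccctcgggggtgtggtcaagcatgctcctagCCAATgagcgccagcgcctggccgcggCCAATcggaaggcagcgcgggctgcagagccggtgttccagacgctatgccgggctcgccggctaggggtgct

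An E2F-type word stood in the windows of Brca2 and Mdc1, which rose, and of Xrcc6, which fell, all as TTTCCCGC or its reverse complement. It began at -168 in Brca2, -16 in Mdc1 and -46 in Xrcc6. Fanca had 2 CCAAT boxes and none of the other words, and Mdc1 and Xrcc6 had 1 CCAAT box each. Of the 38 members, 31 had a window and Fancd2, Nbn, Prkdc, Rad50, Rad51d, Rbbp8 and Xrcc2 had none. Of the 35 windows of these members, 22.9% held an E2F-type word, against 2.27% of all 32851 windows. The CCAAT box was in 57.1% against 37.4% and the CHR-type word in 5.71% against 17.9%. The words are matches only, and the genes with an E2F-type word (Bard1, Brca2, Chek2, Fancg, Mdc1, Rad51c and Xrcc6) included 2 that rose, 1 that fell and 4 that did not pass. Over all genes, 20.5% were called. The share called among all genes with an E2F-type word was not counted, so nothing is read from these counts.

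Other genes of the same pathways also moved in both directions. Of 69 listed by role, all tested, 7 rose and 6 fell (18.8%, against the 20.5% of all genes), with a median of 0.00353. By DESeq2's test 7 rose and 2 fell, beside 1018 and 1026 of all genes. Without control replicate 1 or 2, 3 fell, beside 1225 and 970 of all genes. Gen1, a nuclease that cuts Holliday junctions, rose from 26.4 ± 1.56 to 33.1 ± 3.67 CPM (log2 fold change 0.33, SE 0.0659, edgeR adjusted p = 5.8e-04). H2afx, the histone variant that is phosphorylated beside breaks and is bound by MDC1, rose from 93.3 ± 2.21 to 114 ± 8.12 CPM (0.29, SE 0.0421, edgeR adjusted p = 1.2e-05). Opposite-strand exons lie over 10.2% of its exonic sequence. Polq, the polymerase of microhomology-mediated joining, rose by 0.16 (edgeR adjusted p = 8.1e-03) and was at 0.14 (adjusted p = 0.058) without control replicate 3.

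Ercc4, the nuclease that incises beside crosslinks, fell by 0.19 (edgeR adjusted p = 0.017), from 25.5 ± 0.329 to 22.4 ± 0.502 CPM. It was not called without control replicate 1 (adjusted p = 0.054) or H2O2 replicate 2 (0.069), with the offset (0.057) or by DESeq2's test (0.060). Lig1, the replicative ligase, fell by 0.15 (edgeR adjusted p = 5.4e-04), from 284 ± 9.01 to 255 ± 1.91 CPM, and Top3a, the topoisomerase that works with BLM, by 0.15 (edgeR adjusted p = 0.042). Top3a was called in 6 of 15 alternatives and lost without control replicate 2 (-0.12, adjusted p = 0.19) or 3 (-0.13, 0.15) and without H2O2 replicate 2 (-0.14, 0.13) or 3 (-0.13, 0.11).

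Genes of proliferation, which share S and G2 phase expression with many members, moved both ways: 6 of 28 rose and 8 fell, or 50% of them against 20.5% of all genes, with a median of -0.01. Cenpf, a kinetochore protein of G2 and mitosis, rose from 131 ± 3.55 to 169 ± 7.97 CPM (log2 fold change 0.36, edgeR adjusted p = 2.7e-08). Mcm3, a subunit of the replicative helicase, fell from 387 ± 14.6 to 338 ± 2.78 CPM (-0.19, edgeR adjusted p = 2.8e-05), and 5 of the 6 Mcm genes listed fell. The part of the cell cycle in the members' values was not tested. Among p53 targets, which lie downstream of ATM and CHK2, 6 of 23 tested fell and 1 rose, or 30.4% against 20.5% of all genes, with a median of -0.07; Perp failed the filter on low counts. Plk2 fell from 248 ± 2.64 to 196 ± 3.81 CPM (-0.35, edgeR adjusted p = 1.9e-09). Phlda3 rose from 45.5 ± 1.80 to 50.4 ± 1.88 CPM (0.15, edgeR adjusted p = 0.022), and was not called with the length and GC offset (0.05, adjusted p = 0.53) or without control replicate 1 (adjusted p = 0.092) or 3 (0.051) or H2O2 replicate 1 (0.087) or 2 (0.066).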

How the data were processed

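RNA-seq of 3 control and 3 H2O2 libraries was analysed from the deposited tables of whole-number read counts per gene symbol, 1 per library. Per the submitters' processing notes, the authors used STAR 2.5.3 and HTSeq on mm10, after bcl2fastq 2.17.1.14 and cutadapt, and DESeq2; annotation and strand setting are not given in the sources used here. The 5 HTSeq summary classes, 19.1% to 20.0% of all counted reads, were left out. Of 33006 genes, 12924 passed edgeR's filterByExpr and were tested with its quasi-likelihood test (version 4.0.16 in R 4.3.3), TMM factors, treatment as the only term and Benjamini-Hochberg adjustment over all tested genes, with a threshold of 0.05. Normalised CPM use those factors; intervals are 95% from the fit. With 3 libraries a group, no pair within a group was as alike as repeat counts of 1 library would be (chi-square per degree of freedom 1.62 to 2.86, and 8.61 and 10.96 for the pairs with H2O2 replicate 3).

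Gene positions, transcript lengths (longest basic transcript), GC content and exon overlaps came from GENCODE M21, the same assembly as mm10, matched for 96.5% of symbols. Paxx, a listed repair gene outside the members, was left out: the tables hold BC029214, which may be its older symbol, but no source used here pairs the names. Alternatives were other scaling factors, DESeq2's test (1.42.0), no and stricter filtering (1 CPM in all libraries), the replicate block, a loess offset (span 0.3) for length and GC, and leaving out each library. Members, lists and the naming rule were chosen with earlier results of these data known. Named with values were all members that passed and, per class, the most abundant per kilobase, the most changed and the least changed, plus the 3 largest rises and falls among other repair genes and the smallest p in each direction among proliferation genes and p53 targets; other members have their estimates, and 1 gene the rule also names is not reported here. The fits were tested on simulated data. Libraries with the same number showed little shared deviation (correlations of -0.0191 to 0.0311 across tested genes). Counting noise is part of these deviations, so shared cultures or batches behind the numbers are not excluded.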

Additional observations from a re-analysis of the deposited data

How the results depend on the processing

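Brca2, Mdc1 and Xrcc6 were called with an unchanged direction under all 15 alternatives, and the other 6 called members kept their direction but lost the call under at least 1. Members that rose numbered 3 by DESeq2's test and 2 to 5 over fits without 1 library, and members that fell 2 to 4. Other repair genes that fell numbered 2 by DESeq2's test and 3 to 4 without 1 library. All genes that rose numbered 891 to 1178 without 1 library, and all genes that fell 926 to 1313. With the replicate block 6 members rose and 3 fell, as without it, and 7 other repair genes rose and 8 fell. All genes that rose then numbered 1294 and those that fell 1444. Libraries with the same number showed little shared deviation, and the block changed no member's call.

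The members' median of 0.0155 was 0.0195 with DESeq2's size factors, 0.0278 with upper-quartile factors, 0.0221 with library size only and 0.0193 by DESeq2's test. It was 0.0207 with no filter, 0.0249 with the stricter filter, 0.0259 with the length and GC offset and 0.0262 with the offset and block. Without 1 library it ran from 0.00668 to 0.0270. The median of all genes was -1.2e-04, 0.00822, 0.00238, -9.3e-05, 0.00357 and 0.00320 in the first 6 of these settings. Without 1 library the median of all genes was -0.00407 to 0.00208. Without 1 library, the medians ran from 0.0251 to 0.0554 for homologous recombination, 0.0157 to 0.0731 for sensing and -0.145 to -0.102 for end joining. They ran from -0.00609 to 0.0421 for Fanconi genes and -0.00102 to 0.0361 for other repair genes.

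In at least 1 alternative 10 members changed sign, none of them called. Most had estimates near 0 in the main test, but Fanci was at -0.07 and Fancl at -0.10. Rad51d stood at 0.0184 and Rad54l at 0.0123 with the offset, and at 0.0182 and 0.0118 with the block too. Nbn was 0.00539 with upper-quartile factors, 0.00242 with the stricter filter, 0.00408 with the offset and 0.00373 with the block too, and Dclre1c 0.00194 with upper-quartile factors. Without 1 library the ranges were -0.0521 to 0.0793 for Palb2, -0.0613 to 0.0156 for Rad51d, -0.0714 to 0.0314 for Rad54l, -0.00597 to 0.0562 for Xrcc2, -0.0209 to 0.0104 for Nbn, -0.0778 to 0.0275 for Dclre1c, -0.0124 to 0.112 for Fancb, -0.0120 to 0.0379 for Fancd2, -0.111 to 0.00568 for Fanci and -0.160 to 0.00228 for Fancl. The causes were not tested. Members with few reads, such as Nhej1, Rad51b and Fancc, have wide intervals at this depth.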
